A study of Rattus norvegicus with 15 samples.

Results

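The nuclear genes of the mitochondrial respiratory chain were examined in rat hippocampus and cortex after stimulation of the vagus nerve (VNS), the cranial nerve that links the viscera with the brainstem. Members were the RefSeq transcript records whose rat symbol starts with Nduf, Uqcr or Atp5, or with Cox followed by a digit from 4 to 8, and the records of Sdha, Sdhb, Sdhc, Sdhd and Cyc1. The rule found 92 records of 88 genes among 18278 records, of which 17339 had a symbol. By complex, these were 34 records of complex I subunits, 8 of complex I assembly factors (symbols starting with Ndufaf), 4 of complex II, 10 of complex III, 19 of complex IV and 16 of complex V, with 1 pseudogene (Cox6c-ps1). Ndufa4 and Ndufa4l2 were placed with complex IV.

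Stimulated rats carried an implanted VNS device that was on for 30 min a day over 4 days. Control rats carried a sham device, and all brains were taken right after the stimulation of the last day. The hippocampus was sampled from rats that had also done a 10 min novelty preference task from day 2 on, as 3 control and 4 VNS libraries. The cortex was sampled as 4 control and 4 VNS libraries. The sources used here give no strain, age or sex, and nothing ties a library to a litter or a day, so the p-values measure only the spread between these libraries, which may be technical.

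The respiratory chain is a set of protein complexes in the inner mitochondrial membrane. Complexes I and II pass electrons from NADH and succinate to ubiquinone, complex III passes them on to cytochrome c, and complex IV hands them to oxygen. The proton gradient that complexes I, III and IV build drives complex V, the ATP synthase. Complex II is encoded wholly in the nucleus, while the other complexes also hold subunits encoded by mitochondrial DNA, which matched 0 records here and were not analysed. Neurons depend on this pathway to pay for ion pumping and synaptic transmission, and nuclear respiratory factors act on the promoters of many of its genes.

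Levels are given in CPM, read counts brought to one common depth, on library sizes normalised by the trimmed mean of M values (TMM) after ribosomal RNA and 7SL RNA records were removed. Hippocampal libraries kept 4301901 to 42620738 counts after that step, of which the members took 0.468% to 0.856%. The shallowest was VNS library 3, with 20133 member counts, 73.1% of its total in ribosomal RNA and 27.5% of its kept counts in 1 record without a symbol, which held at most 0.4997% elsewhere. Hippocampal control libraries 1 and 2 went against their tissue label in several marker lists, though not in every marker. Over the 6 forebrain excitatory neuron markers with a record, the summed level was 959 and 236 CPM in control libraries 1 and 2, 5549 CPM in control library 3 and 4585 to 7304 CPM in the VNS libraries. The summed level of 4 thalamic and brainstem markers came to 2416 and 682 CPM in the same 2 controls, and to between 60.2 and 289 CPM elsewhere. Slc17a6 and Lef1 were higher in both of these controls than in any other library. Slc17a6 alone was at 558 CPM in control library 2. Prkcd and Ntng1 were high in control library 1 only (1267 and 499 CPM). In control library 2 they were at 19.0 and 82.5 CPM, below VNS library 2 (66.1 and 107.6 CPM). The 6 hippocampal pyramidal and granule cell markers summed to 713 and 304 CPM in control libraries 1 and 2. They came to 1180 CPM in control library 3 and 1065 to 2013 CPM after VNS. In control library 1, Prox1 (143 CPM), Cpne4 (219 CPM) and Bok (263 CPM) lay above control library 3 (129, 176 and 52.5 CPM). Wfs1, Fibcd1 and Calb1 lay below it. Oligodendrocyte markers summed to 12137 and 10044 CPM in control libraries 1 and 2, 6873 CPM in control library 3 and 3214 to 7741 CPM after VNS. The markers listed for parvalbumin interneurons, which include the general GABA neuron genes Gad1 and Gad2, summed to 1770 and 1747 CPM in these 2 controls. Elsewhere they came to between 574 and 720 CPM. Pvalb itself was at 166 CPM in control library 1 but at 39.9 CPM in control library 2. Lhx6, of the same list, went the other way, at 2.08 and 0.058 CPM in these controls and 8.96 to 20.8 CPM elsewhere. Hippocampal results are therefore also given without control libraries 1 and 2. That setting leaves control library 3 as the only control, so it has no spread between controls and is read for effect sizes only. In bulk tissue, fewer cells of a type and less RNA per cell cannot be told apart.

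Of the 92 records, 82 had enough hippocampal counts to be tested, and 8 of the other 10 were at 0 in all 7 libraries. Of the 10, 8 overlap another record on their own strand. Both records of Ndufaf3, Uqcr11 and Cox6a2 and 1 record of Ndufv3 share their exons with another record of the same gene, and Ndufa10l1 lies over Ndufa10 on the same strand, and reads shared by 2 records are assigned to neither. Cox8c, a testis form of a complex IV subunit, had 0 counts in all 7 libraries, which allows up to 0.0176 CPM (3 counts over the 7 libraries, for counting error only). Cox6c-ps1 was also too low to test. The members were short, with a median record length of 668 bases against 1884 over all records, and 45.7% of them were 600 bases or shorter against 6.33% of all. RefSeq names at least 1 pseudogene for 44 of the 92 records (47.8%, against 8.77% of all), so reads may be split with near-identical copies and these levels are uncertain. The records lay on 20 chromosomes, with 14 on chromosome 1, 14 on chromosome 7 and 3 on X.

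Between genes, levels are compared per kilobase of record, as the mean over the 7 hippocampal libraries. The highest members were the alpha and beta subunits of the ATP synthase and nuclear-encoded subunits of cytochrome c oxidase. Atp5f1b, the catalytic beta subunit, was at 527 ± 105 CPM per kilobase, and Atp5f1a, the alpha subunit, at 422 ± 66.0 (SD, n = 7). Cox4i1, the regulatory subunit 4 of complex IV, stood between them at 504 ± 43.7 CPM per kilobase. Atp5f1b and Cox4i1 did not differ beyond their spread, and Atp5f1a lay below Cox4i1 by more than the SD of either. Cox8a followed at 311 ± 29.4 and Cox6a1 at 267 ± 73.7 CPM per kilobase.

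Complex I subunits ranged from 10.0 to 199.9 CPM per kilobase, led by the membrane arm subunits Ndufb8 (199.9 ± 23.9) and Ndufb9 (198 ± 27.5, SD, n = 7). In complex III the core subunits Uqcrc2 (160.4 ± 12.5) and Uqcrc1 (160.1 ± 29.1) and the hinge protein gene Uqcrh (125 ± 10.1) were highest. Cyc1, the cytochrome c1 heme protein, was at 92.2 ± 13.9 CPM per kilobase. In complex II, Sdha, the flavoprotein that oxidises succinate, was at 151 ± 17.1, its iron-sulfur partner Sdhb at 98.6 ± 9.93, and the membrane anchors Sdhc at 94.6 ± 21.6 and Sdhd at 50.6 ± 8.04. Sdhb and Sdhc did not differ beyond their spread. The 6 assembly factors tested, which help to build complex I without staying in it, were lower, from 7.42 to 22.4 CPM per kilobase, led by Ndufaf5 (22.4 ± 4.56), Ndufaf8 (22.2 ± 6.06) and Ndufaf1 (13.7 ± 1.12). The delta subunit Atp5f1d of the ATP synthase was at 156 ± 20.5.

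Subunits with tissue-specific copies split sharply. The widely expressed Cox4i1 (504 CPM per kilobase) stood against 1.65 ± 0.94 for Cox4i2, a copy known from lung, and Cox6b1 (12.1 ± 3.81) against 1.45 ± 0.76 for the testis copy Cox6b2. Cox8a was at 311 and Cox8b, a copy of heart and skeletal muscle, at 1.19 ± 1.10 CPM per kilobase. Ndufa4 was at 116 ± 19.7 and Ndufa4l2, a copy induced by low oxygen in other cells, at 2.16 ± 0.77. Cox7a2l, which takes part in joining complexes III and IV, was at 111 ± 6.35, above Cox7a2 at 8.67 ± 2.57, whose record overlaps one on the opposite strand. Of the genes of the c subunit, which forms the rotor ring of the ATP synthase, Atp5mc1 was at 47.1 ± 7.20 and Atp5mc2 at 31.9 ± 4.43 CPM per kilobase. Atp5mc3, Cox7a1 and Cox7b2 had no record matched to their symbol and were not analysed here. The plot of levels by complex shows this spread.

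**Figure D1:**
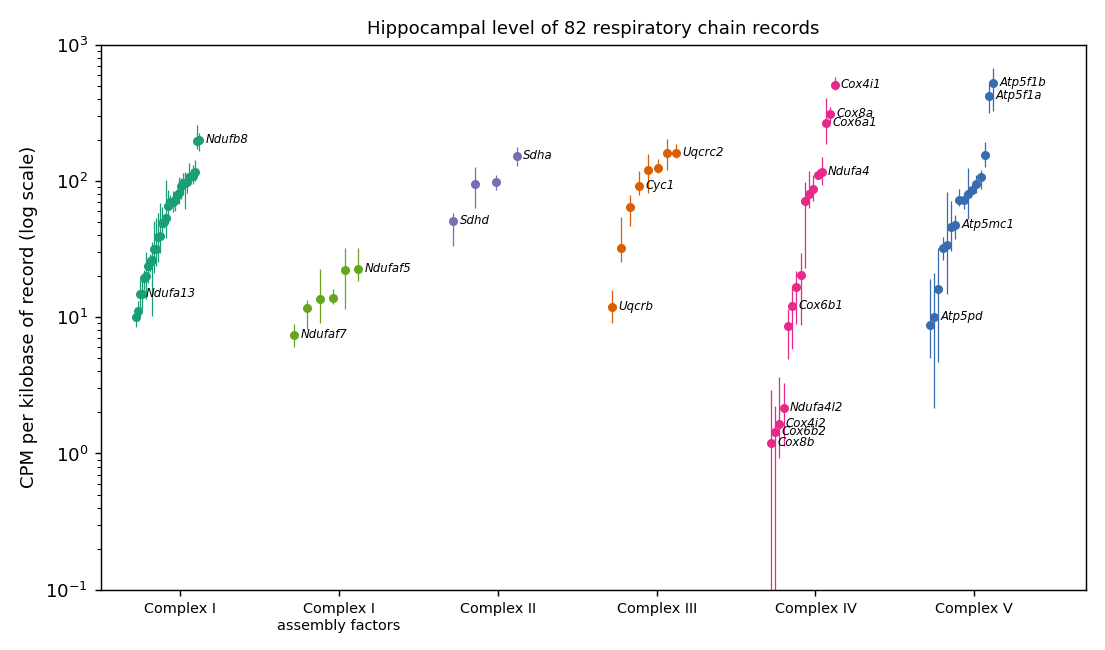
Level of the 82 tested respiratory chain records in hippocampus, in CPM per kilobase of record on a log axis, by complex. Points are means over 7 libraries and bars run from the lowest to the highest library, with 2 bars that reach 0 (Cox6b2 and Cox8b) ending at the axis. Atp5f1b, Cox4i1 and Atp5f1a lie highest, between 422 and 527, and Cox8b lies lowest, at 1.19.

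The members also shared sequence features that the rule did not use. RefSeq promoters of assembly GRCr8, 250 bases before to 50 bases after each gene's start, were matched for 76 of the 88 genes and searched on both strands for the letters of sites known for 3 factors. The nuclear respiratory factor 1 (NRF1) letters, GCGCA then any base and GCGC, were in 14 of the 76 promoters (18.4%), against 4.25% of all 33469 promoters and 9.02% of the 10156 promoters of genes tested in the hippocampus. The letters CCGGAAG, bound by GABPA (nuclear respiratory factor 2), were in 23 (30.3%, against 8.75% and 16.1%). The YY1 letters AANATGGCG were in 16 (21.1%, against 3.01% and 5.48%). Most of these YY1 matches began between 1 base before and 36 bases after the gene's start. Only those of Atp5pf, Ndufa13 and Ndufs1 lay further upstream. At least 1 of the 3 was in 44 promoters (57.9%, against 14.3% and 26.7%), no promoter had overlapping matches of different motifs, and only Atp5me had both the NRF1 and the GABPA letters. A match is a run of letters, not a shown binding site.

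The following stretches show each motif in members that the results below turn on, that lead their complex or that form its core, 5′ to 3′ on the gene's strand, with the matched letters in capitals. The NRF1 letters are given for Atp5me (chr14:1464764-1464813, plus strand), Sdha (chr1:30764487-30764536, plus strand) and Atp5mc2 (chr7:135678245-135678294, minus strand). The matches shown begin 76, 46 and 56 bases before the gene's start, and the Sdha promoter has further NRF1 matches that are not shown.
Atp5me: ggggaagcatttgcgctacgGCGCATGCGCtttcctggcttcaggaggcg
Sdha: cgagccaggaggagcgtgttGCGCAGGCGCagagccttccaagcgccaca
Atp5mc2: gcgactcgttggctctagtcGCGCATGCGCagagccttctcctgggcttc
The GABPA letters, or their reverse complement, are given for Sdhb (chr5:158547806-158547852, plus strand), Uqcrc2 (chr1:184599103-184599149, plus strand) and Cox8a (chr1:213833654-213833700, minus strand), 108, 117 and 57 bases before the start. Uqcrc2 and Cox8a each have a further GABPA match, nearer the start, that is not shown.
Sdhb: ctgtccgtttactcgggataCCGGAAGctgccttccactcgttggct
Uqcrc2: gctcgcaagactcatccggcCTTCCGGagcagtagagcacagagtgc
Cox8a: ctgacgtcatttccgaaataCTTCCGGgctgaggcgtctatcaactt
The YY1 letters, as their reverse complement, are given for the complex I core subunit gene Ndufs1 (chr9:72073607-72073655, minus strand), 30 bases before the start.
Ndufs1: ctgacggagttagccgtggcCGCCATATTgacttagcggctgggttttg

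The main comparison asked whether these genes differed between VNS and control hippocampus. No member passed the test, and as a group the members did not lean to either side. Of 82 tested members, 41 had higher and 41 lower values after VNS, with a median log2 fold change of -0.0012, beside -0.0088 over all 12810 records tested, of which 49.0% were higher. The number passing at an adjusted p of 0.05 (edgeR quasi-likelihood test, Benjamini-Hochberg over all records) was 0 among the members, the same share as among all records (0%), and the smallest adjusted p of a member was 0.407. At an unadjusted p under 0.05 there were 6 members, which is 7.32% of them beside 11.9% of all records. Of these, 2 were higher (4.6% of all records were) and 4 lower (7.35% of all). DESeq2 called 0 members and 17 of all records (0.133%), with 9 members at an unadjusted p under 0.05 (11.0%, against 14.8%). Limma-voom called 0 members and 0% of all records, with 7 members at an unadjusted p under 0.05 (8.54%, against 14.8%). A p that misses the threshold does not show that values are equal.

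The differences were small beside those of all records tested, a comparison not matched for level. The median level was 64.9 CPM per kilobase for the members and 11.5 for all records tested. The absolute log2 fold change was under 0.5 for 75 of the 82 members (91.5%), against 73.9% of all records tested. The median coefficient of variation of a member was 10.2% over the control libraries and 16.2% over the VNS libraries, against 19.5% and 18.8% for all records tested. Summed over members, the level was 7856, 7272 and 6822 CPM in control libraries 1, 2 and 3 and 6929, 6529, 6553 and 7020 CPM in VNS libraries 1 to 4. Only control libraries 1 and 2 lay above all VNS libraries on this sum. The member median relative to a record's own mean over the 7 libraries was between -0.12 (VNS library 2) and 0.06 (control library 1) on the log2 scale.

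**Figure D2:**
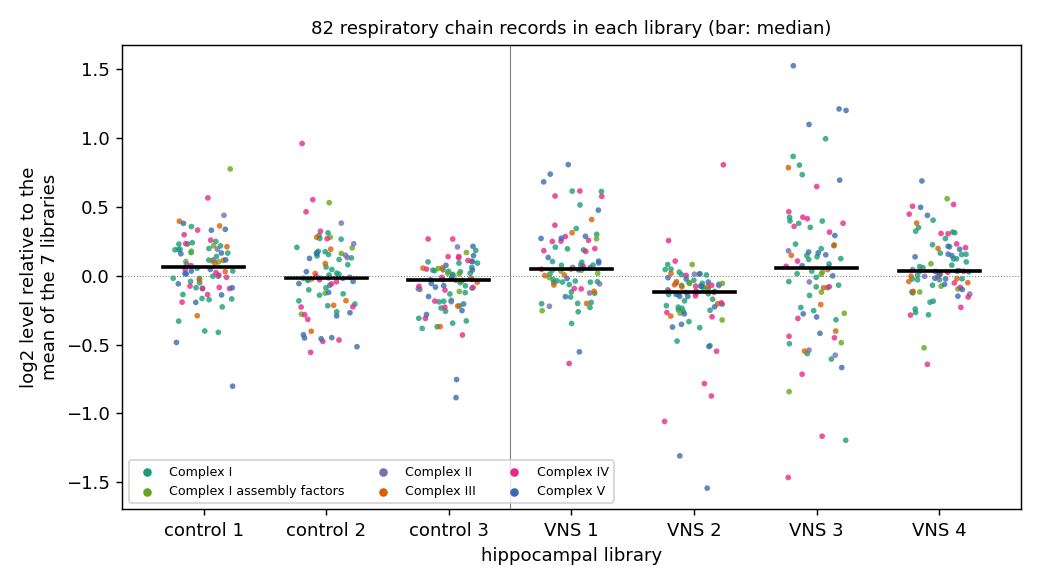
Log2 level of each of the 82 tested members in each hippocampal library, relative to its mean over the 7 libraries (CPM plus 0.5), coloured by complex, with black bars for the median of a library. The medians run from -0.12 in VNS library 2 to 0.06 in control library 1, and the points spread most in VNS library 3.

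Of the 82 members, 29 were highest and 24 lowest in VNS library 3, the library with the fewest kept counts, and 21 were lowest in VNS library 2. Without VNS library 3, 39 of 82 members had higher values and the median was -0.02. Without control libraries 1 and 2, 50 had higher values and the median was 0.04, against control library 3 alone. Without control library 3, the only control with forebrain markers at the level of the VNS libraries, 1368 of 13009 records passed (10.5%), and 0 of 82 members did, with 9 at an unadjusted p under 0.05 (11.0%, against 26.6% of all). The nearest member was then Atp5me, at an adjusted p of 0.0582 (edgeR).

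Groups did not overlap for 9 of the 82 members (11.0%, against 9.21% of all records tested). Every VNS library lay above every control for 3 of them, Atp5me, Atp5if1 and Ndufb2 (3.66%, against 4.40%), and below for 6, Sdhc, Sdhd, Uqcrfs1, Ndufaf7, Ndufa9 and Ndufc2 (7.32%, against 4.81%). These shares were near the background.

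In complex I, the entry point of NADH electrons, 17 of 32 tested subunit records had higher and 15 lower values, with a median of 0.002 and a range from -0.32 to 0.69 (log2). Ndufs4, an accessory subunit needed for a stable complex and mutated in Leigh syndrome, was at 119, 125 and 106 CPM in control libraries 1 to 3 and at 88.6, 96.8, 106.4 and 90.9 CPM in VNS libraries 1 to 4. VNS library 3 lay just above the lowest control, and the log2 fold change was -0.29 (SE 0.13, adjusted p = 0.407, edgeR). Ndufb10, a membrane arm subunit, had control values of 25.9, 28.6 and 26.5 CPM and VNS values of 34.7, 26.3, 69.0 and 45.6 CPM. The highest value was that of VNS library 3, without which its log2 fold change went from 0.69 (SE 0.30) to 0.40. Ndufb2, another membrane arm subunit, was at 19.8, 19.2 and 20.5 CPM in controls and 23.6, 22.4, 29.6 and 22.9 CPM after VNS (log2 fold change 0.31, SE 0.15). Ndufc2, also of the membrane arm, was at 62.5, 73.7 and 65.1 CPM in controls and 59.0, 53.7, 59.2 and 55.9 CPM after VNS (-0.24, SE 0.12). For both, the gap between the groups was smaller than the range of the VNS libraries.

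Ndufs1, the large core subunit that carries iron-sulfur clusters, was at 335, 301 and 245 CPM in controls and 239, 232, 264 and 229.8 CPM after VNS (log2 fold change -0.28, SE 0.15). Control library 3 lay inside the VNS range, and without control libraries 1 and 2 the log2 fold change was -0.02. Ndufs1 was named after its value was seen.

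All 6 tested assembly factors of complex I had lower values, with a median log2 fold change of -0.23. Ndufaf7, a methyltransferase that acts during assembly, was at 19.8, 21.2 and 19.6 CPM in controls and 17.8, 14.3, 14.3 and 16.0 CPM after VNS. All VNS libraries lay below all controls (log2 fold change -0.36, SE 0.14, adjusted p = 0.407, edgeR), and the value without control libraries 1 and 2 was -0.32. Over the assembly factors, the median without those libraries was -0.03, with 2 of 6 higher. Ndufaf5 went from -0.33 (SE 0.18) to -0.02, and Ndufaf8 was at -0.05 (SE 0.30, and 0.04 without those libraries) and Ndufaf1 at -0.07 (SE 0.14).

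**Figure D3:**
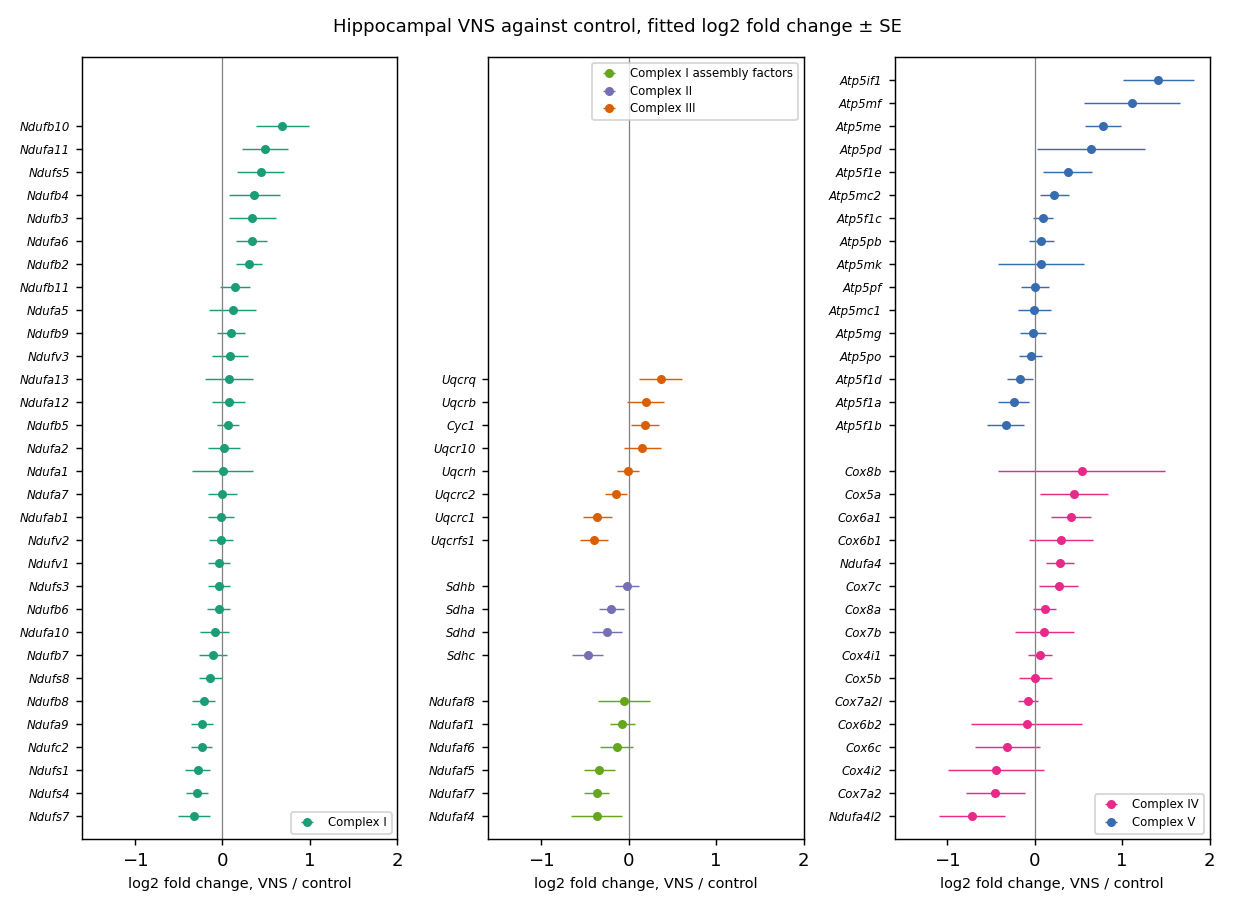
Fitted log2 fold change of VNS against control hippocampus (edgeR, 4 and 3 libraries) for the tested members, grouped by complex, with bars of 1 SE and 1 member left out. Values scatter around 0 in complexes I, III, IV and V, all assembly factors and complex II genes lie below 0, and the highest is Atp5if1 at 1.41.

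Complex II, which also works in the citric acid cycle, had lower values for all 4 genes (median log2 fold change -0.22). Sdhc, 1 of its membrane anchors (chromosome 13, 94125548 to 94146440 in rn5), was at 144, 139 and 105 CPM in control libraries 1 to 3 and at 102, 101, 72.9 and 96.8 CPM in VNS libraries 1 to 4. Control library 3 lay only just above the highest VNS library (log2 fold change -0.47, SE 0.17, adjusted p = 0.407, edgeR). Without control libraries 1 and 2 the log2 fold change of Sdhc was -0.17, and without VNS library 3 it was -0.37. Sdhd, the other anchor, was at 66.0, 67.6 and 70.5 CPM in controls and 63.6, 61.4, 40.7 and 62.3 CPM after VNS (-0.25, SE 0.17). VNS library 3 stood apart, and without it the value was -0.12.

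Sdha was at 391, 402 and 319 CPM in controls and 293, 329, 332 and 341 CPM after VNS, so that control libraries 1 and 2 were high and control library 3 lay inside the VNS range. Its log2 fold change was -0.20 (SE 0.14), and 0.02 without control libraries 1 and 2. Sdhb was at 101, 104 and 83.5 CPM in controls and 87.3, 87.1, 108.1 and 98.3 CPM after VNS (-0.02, SE 0.14), and at 0.18 without those libraries. The median over complex II went from -0.22 to -0.07 without them, with 2 of 4 genes higher. Sdhd stayed lower, at -0.295, and so did Sdhc, while Sdha and Sdhb turned.

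In complex III, 4 of 8 tested records had higher and 4 lower values (median 0.07). Uqcrfs1, the Rieske iron-sulfur protein that takes electrons from ubiquinol (chromosome 17, 36991588 to 36995865 in rn5), was at 170.2, 148 and 139 CPM in controls and 123, 122, 88.2 and 129 CPM after VNS. All VNS libraries lay below all controls (log2 fold change -0.39, SE 0.16, adjusted p = 0.407, edgeR), with values of -0.26 without control libraries 1 and 2 and -0.29 without VNS library 3. Uqcrc1 was at 318, 300.4 and 242 CPM in controls and 215, 250.3, 187 and 244 CPM after VNS. Control library 3 was inside the VNS range, and the log2 fold change of -0.36 (SE 0.16) was -0.11 without the other 2 controls. Uqcrc2 was at -0.14 (SE 0.12), and Uqcrh at -0.0095 (SE 0.12). Cyc1 was at 116, 96.2 and 93.6 CPM in controls and 109.6, 100.3, 113 and 142 CPM after VNS (0.19, SE 0.16), with overlapping groups.

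In complex IV, 10 of 16 tested records had higher and 6 lower values (median 0.09), and none was among those with non-overlapping groups. Cox4i1 and Cox8a, the highest of these per kilobase, were close to 0. Cox4i1 was at 329, 336 and 362 CPM in controls and 327, 324, 377 and 403 CPM after VNS (log2 fold change 0.06, SE 0.14), and Cox8a was at 0.11 (SE 0.13). Leaving out control libraries 1 and 2 gave -0.02 and -0.06. Cox6a1 was at 141, 103 and 125 CPM in controls and 133, 124, 223 and 176 CPM after VNS (0.41, SE 0.23). The value of 223 CPM was that of VNS library 3, without which the log2 fold change was 0.23. Ndufa4 was at 84.2, 73.7 and 83.6 CPM in controls and 107, 81.1, 117 and 89.4 CPM after VNS (0.29, SE 0.16). Ndufa4l2, low throughout, was at 2.37, 3.09 and 2.44 CPM in controls and 1.07, 2.42, 1.30 and 1.58 CPM after VNS. Its fitted difference was -0.72 (log2, SE 0.38, edgeR adjusted p = 0.424). Cox7a2l was at -0.08 (SE 0.12), Cox6b1 at 0.30 (SE 0.36), Cox7a2 at -0.45 (SE 0.34) and Cox4i2 at -0.44 (SE 0.55), which was 0.43 without control libraries 1 and 2. Cox6b2 (-0.09, SE 0.63) and Cox8b (0.53, SE 0.96) had SEs too wide to place them.

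In complex V, 10 of 16 tested records had higher and 6 lower values (median 0.08), and the members with the smallest p of all were here. Atp5me, the e subunit in the membrane part of the ATP synthase (chromosome 14, 2323662 to 2324790 in rn5), was at 15.5, 15.2 and 17.96 CPM in control libraries 1 to 3 and at 26.6, 20.1, 35.8 and 29.9 CPM in VNS libraries 1 to 4. All VNS libraries were higher than all controls. The means were 16.2 ± 1.51 CPM (SD, n = 3) and 28.1 ± 6.55 CPM (SD, n = 4), the log2 fold change was 0.78 (SE 0.21), and the adjusted p was 0.407 (edgeR) and 0.105 in DESeq2. It was 0.63 without control libraries 1 and 2 and 0.66 without VNS library 3. The record is 289 bases long.

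Atp5if1 encodes the inhibitory factor that stops the synthase from running backwards and spending ATP (chromosome 5, 154387824 to 154391541 in rn5). It was at 7.57, 9.75 and 7.12 CPM in controls and 19.1, 10.5, 40.0 and 19.4 CPM after VNS. VNS library 2 lay just above the highest control and VNS library 3 highest. The means were 8.15 ± 1.41 and 22.3 ± 12.5 CPM (SD, n = 3 and n = 4), and the log2 fold change was 1.41 (SE 0.41, adjusted p = 0.407 in edgeR and 0.102 in DESeq2). The log2 fold change became 1.01 when VNS library 3 was left out, and 1.58 when control libraries 1 and 2 were.

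**Figure D4:**
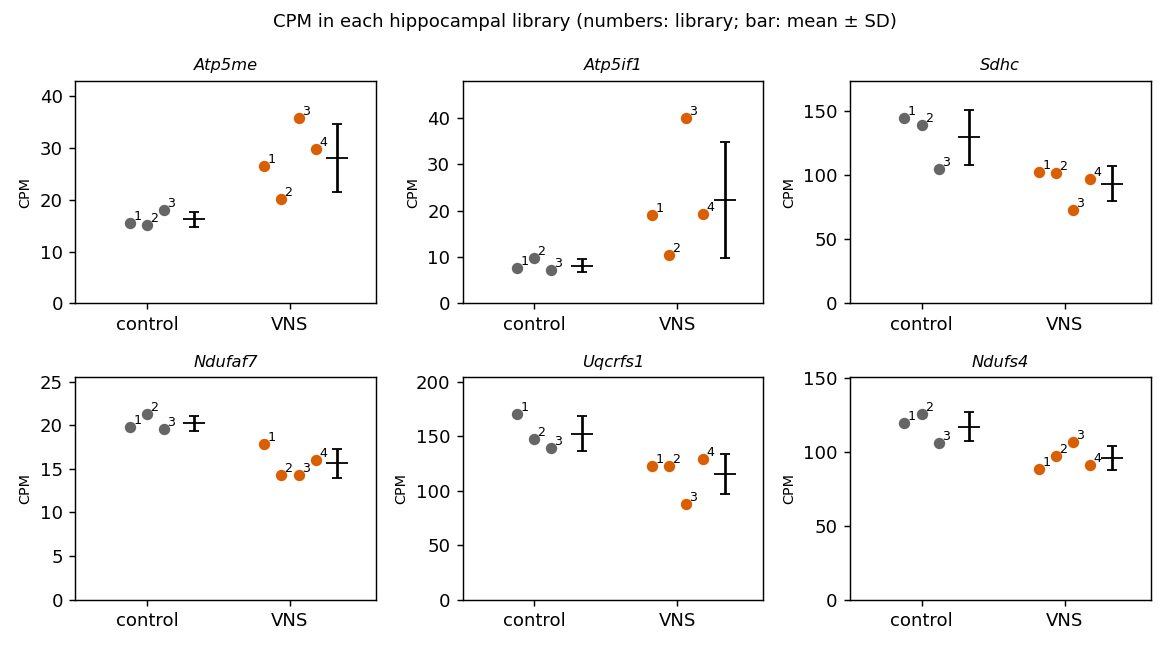
CPM in each hippocampal library for 6 members with the smallest p, with numbers naming the library and black bars for mean ± SD (n = 3 controls, n = 4 VNS). Atp5me and Atp5if1 are higher in every VNS library, Sdhc, Ndufaf7 and Uqcrfs1 are lower in every VNS library, and Ndufs4 overlaps by VNS library 3.

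The alpha and beta subunits of complex V pointed the other way from Atp5me and Atp5if1. Atp5f1b was at 1183, 992 and 976 CPM in controls and 978, 917, 572 and 870.2 CPM after VNS (log2 fold change -0.33, SE 0.21), and Atp5f1a was at 977, 864 and 730.0 CPM in controls and 762, 766, 578 and 793 CPM after VNS (-0.24, SE 0.18). VNS library 3 was lowest for both. Without it the values were -0.19 and -0.15, and without control libraries 1 and 2 they were -0.23 and -0.01. Atp5f1d was at -0.17 (SE 0.15), Atp5mc1 at -0.0025 (SE 0.19) and Atp5mc2 at 0.22 (SE 0.16). Atp5mf had a log2 fold change of 1.11 (SE 0.55), with controls from 3.21 to 4.97 CPM and VNS libraries from 2.03 to 13.995 CPM, and was named after its value was seen.

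Short and long members differed in direction. Of 36 tested members of 600 bases or less, 27 had higher values after VNS (median log2 fold change 0.11), of 26 members over 600 and up to 1200 bases 11 did (-0.03), and of 20 members over 1200 bases 3 did (-0.21). Over all records of the same length classes, the medians were 0.11 (59.6% of 329 records higher), 0.04 and -0.02. The median of the short members was that of all short records, with 75.0% of the members higher. That of the long members was lower than that of all long records. Both sets of all records include the members. Across the 82 members, the Spearman correlation of the log2 fold change with record length was -0.52, against -0.03 over all 12810 records. These points share the same 7 libraries and the value is a description.

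The long members were high in control libraries 1 and 2, where their median relative level was 0.20 and 0.14 (log2), against -0.01 in control library 3 and -0.07 to 0.01 in the VNS libraries. Without control libraries 1 and 2, their median log2 fold change was -0.03, with 8 of 20 higher. Without the same libraries the short members had a median of 0.22 (26 of 36 higher), beside 0.07 for all short records (197 of 329 higher). The short members were low in VNS library 2 (-0.21) and high in VNS libraries 1, 3 and 4 (0.20, 0.21 and 0.17), against 0.02, -0.11 and -0.08 in control libraries 1 to 3. Without control libraries 1 and 2 the correlation with length was -0.38 among members and -0.08 over all records, and without VNS library 3 it was -0.53 and -0.02. Members with a pseudogene named in RefSeq had a median of 0.08 (29 of 43 higher), and those without had -0.08 (12 of 39 higher). Leaving out control libraries 1 and 2 brought these medians to 0.06 (28 of 43 higher) and 0.02 (22 of 39 higher). The part of length, pseudogene copies and library composition in these values was not tested.

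**Figure D5:**
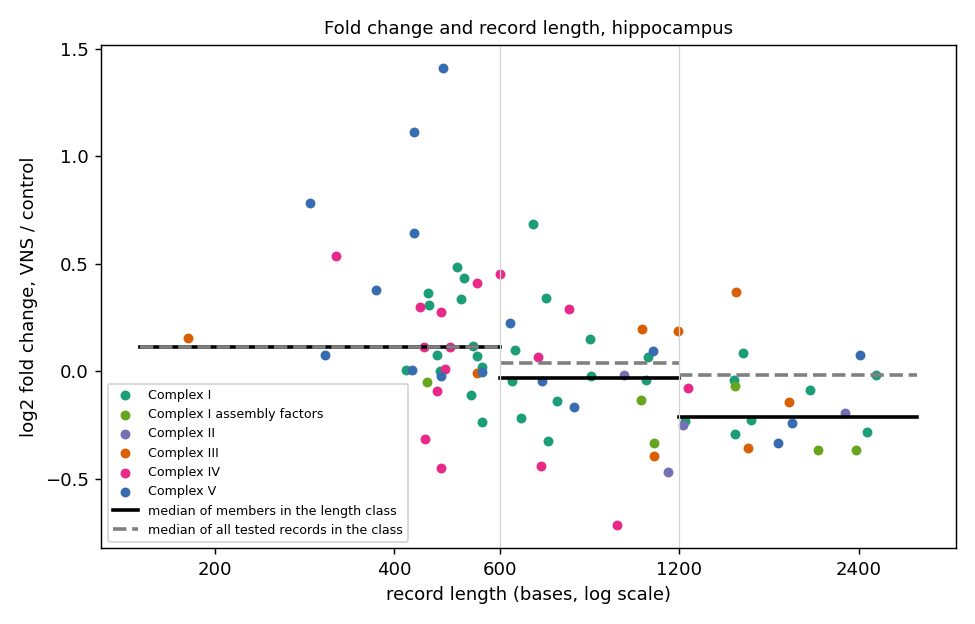
Log2 fold change of VNS against control hippocampus for each of the 82 tested members against the length of its record in bases (log axis), coloured by complex. Black lines are medians of the members in each length class (0.11, -0.03 and -0.21) and dashed grey lines those of all tested records of that class (0.11, 0.04 and -0.02).

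The promoter letters did not separate the fold changes. Of the 14 tested members with the NRF1 letters 9 had higher values (median 0.09), of 23 with the GABPA letters 11 did (-0.0095), of 16 with the YY1 letters 7 did (-0.04), and of 29 with none of them 14 did (-0.0025).

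Genes of neighbouring mitochondrial pathways gave 0 passing records in every list in the main hippocampal comparison, where 0 of all 12810 records passed. The counts in these lists stand beside 11.9% of all records at an unadjusted p under 0.05 and 49.0% with higher values. Of 17 tested genes of mitochondrial biogenesis and mitochondrial DNA expression, 7 had higher and 10 lower values (median -0.05, 0 at an unadjusted p under 0.05). In that list Esrra, a nuclear receptor that drives respiratory genes, was at -0.56 (SE 0.26), the mitochondrial DNA helicase gene Twnk at -0.21 (SE 0.11) and the coactivator gene Ppargc1a at -0.32 (SE 0.26). Leaving out control libraries 1 and 2 gave 0.05 for Ppargc1a, -0.11 for Esrra and a list median of -0.04 with 7 of 17 higher. Of 32 tested records of cytochrome c and assembly factors outside the rule, 13 were higher and 19 lower (median -0.04, 2 at an unadjusted p under 0.05). Here the complex V assembly factor Atpaf1 was at -0.85 (SE 0.31), with 234 CPM in control library 1 and 73.3 to 104 CPM in the other 6 libraries. The complex II assembly factor Sdhaf1 was at 0.62 (SE 0.25) and Cycs, cytochrome c itself, at -0.27 (SE 0.18). The median of this list without control libraries 1 and 2 was -0.01, with 14 of 32 higher.

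The citric acid cycle list had 2 of 19 tested records higher and 17 lower (median -0.11, 0 at an unadjusted p under 0.05). Suclg2, a succinyl-CoA ligase subunit, was at -0.30 (SE 0.16) and the pyruvate carrier subunit Mpc2 at -0.72 (SE 0.40, 1 of 2 records). Without control libraries 1 and 2 the median was -0.02, with 7 higher. Glycolysis had 8 of 18 higher (median -0.03), with 5 at an unadjusted p under 0.05 (edgeR, 11.9% of all records). The phosphofructokinase gene Pfkl was at 0.56 (SE 0.20) and the lactate dehydrogenase gene Ldha at 0.96 (SE 0.36). The level of Ldha was 41.0 and 52.7 CPM in the controls with low forebrain markers, and between 113 and 181 CPM elsewhere.

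Mitochondrial carriers and channels had 3 of 8 higher (median -0.10, 1 at an unadjusted p under 0.05), with the glutamate carrier Slc25a22 at 0.68 (SE 0.27) and the phosphate carrier Slc25a3, which feeds the ATP synthase, at -0.33 (SE 0.20, 1 of 2 records). Of 7 tested fusion and fission records 1 was higher and 6 lower (median -0.22, 2 at an unadjusted p under 0.05), with the fission genes Mff at -1.16 (SE 0.37, 1 of 3 records, 848 counts) and Fis1 at -0.34 (SE 0.12). A second tested Mff record, with 4158 counts, was at -0.02 (SE 0.20). Uncoupling proteins had 2 of 4 higher (median 0.07, 1 at an unadjusted p under 0.05), with Ucp2 at 0.95 (SE 0.29) and Slc25a14 at 0.33 (SE 0.22). Mitochondrial defence against reactive oxygen had 1 of 7 higher (median -0.26, 2 at an unadjusted p under 0.05), with the superoxide dismutase gene Sod2 at -0.59 (SE 0.19) and the peroxiredoxin gene Prdx3 at -0.44 (SE 0.16). Without control library 3, Atpaf1 (-1.09, adjusted p = 0.0440), Ldha (1.51, adjusted p = 0.00881), the Mff record with 848 counts (-1.50, adjusted p = 0.0135) and Sod2 (-0.73, adjusted p = 0.0387, edgeR) passed, with 10.5% of all records. When control libraries 1 and 2 were left out instead, Atpaf1 was at -0.20, Ldha at 0.24, the same Mff record at -0.09, Sod2 at -0.26 and Prdx3 at -0.16. In that setting the list medians were 0.15 for glycolysis (13 of 18 higher), 0.06 for carriers and channels (5 of 8), -0.08 for fusion and fission (2 of 7), 0.27 for uncoupling proteins (3 of 4) and -0.045 for reactive oxygen defence (3 of 7). Pvalb, the marker gene of fast-spiking interneurons, was at 166 CPM in control library 1 and 29.3 to 41.7 CPM in the other 6 libraries (-1.11, SE 0.54, and 0.30 without control libraries 1 and 2).

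The cortex was compared in the same way, on far fewer counts. Its libraries held 798 to 1410 member counts each, out of 328424 to 434775 kept counts (0.204% to 0.324%), and 13 members were at 0 in all 8 libraries. Per the file header, cortex reads were counted on 1 strand only (option 1), from a kit that the labels describe as stranded. Records overlapping an opposite-strand record took 33.5% to 38.3% of the kept counts there, against 2.25% to 3.48% in the hippocampus. Ndufs3, which overlaps a record on the opposite strand, held 845 of the 7578 member counts (11.2%). The level of a named gene, or its fold change, can therefore not be taken from its cortex count.

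Of 36 members tested in the cortex, 0 passed (edgeR, where 1 of 3881 records did, 0.0258%). DESeq2 and limma-voom also called 0, with 1 member each at an unadjusted p under 0.05 (2.78%, against 2.27% and 2.32% of all). The smallest adjusted p of a member was 0.9997, and 1 had an unadjusted p under 0.05 (2.78%, against 2.37%). There were 13 higher and 23 lower members (47.6% of all records were higher), with a median log2 fold change of -0.10 beside -0.02 over all records. All 7 tested members of complex V had lower values (median -0.22), as did 2034 of all 3881 records. These 7 values ran from -0.54 to -0.0023, with a median SE of 0.34, so the nearest was almost at 0.

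Ndufaf8 had 28, 35, 24 and 15 counts in cortex control libraries 1 to 4 and 10, 8, 16 and 23 in VNS libraries 1 to 4 (log2 fold change -0.86, SE 0.40). The groups overlapped. Ndufa5, an accessory subunit of complex I, had 7, 15, 7 and 18 counts in controls and 21, 32, 21 and 13 after VNS (0.90, SE 0.44), also overlapping. Cox4i1 had 33, 51, 28 and 32 counts in controls and 26, 24, 19 and 26 after VNS (-0.59, SE 0.30), and was the only 1 of 36 members whose groups did not overlap (2.78%, against 2.29% of all records). Sdha had 29, 48, 27 and 24 counts in controls and 21, 29, 19 and 20 after VNS (-0.51, SE 0.33). In the hippocampus Cox4i1 stood at 0.06 and Ndufaf8 at -0.05, and the difference between tissues was not tested.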

How the data were processed

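RNA was sequenced from 7 hippocampal (ribosome-depleted) and 8 cortex (polyA-selected) libraries. The authors deposited raw read counts per RefSeq transcript record (build rn5). Per the file headers, the counting tool was featureCounts 1.4.6-p2. Also named, in the submitters' processing notes, are Bowtie2, SAMtools 0.1.19, Trimmomatic, FastQC 0.10.1, Subread and edgeR. The headers show strand option 1 for cortex and none for hippocampus. The sources used here give no aligner settings. Symbols came from RefSeq (GRCr8), used for names and promoters only.

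The 4 ribosomal and 7SL RNA records were removed in both tissues. Each tissue was fitted on its own in edgeR 4.0.16 under R 4.3.3 (filterByExpr, minimum count 10 and total 15, TMM, glmQLFit and glmQLFTest, two-sided, Benjamini-Hochberg over all records, threshold 0.05). The fit was tested on data simulated with a single fixed dispersion. These held no differences in tissue composition or library quality, so the test does not cover those features of the hippocampal libraries. Replicates were numbered in accession order. Alternatives were other scalings and filters, DESeq2 1.42.0, limma 3.58.1 voom, keeping the removed records, sums per symbol, leaving out opposite-strand overlaps and leaving out libraries. No pair of libraries was a duplicate (smallest chi-square per degree of freedom 18.2 in hippocampus and 3.36 in cortex).

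Members and lists were chosen with earlier results of these data known. Named members were the 10 smallest p in hippocampus and 4 in cortex, the 3 highest per complex, subunits with tissue-specific copies, Cyc1 and the Sdh genes. Other lists gave their 2 smallest p, with Ppargc1a, Cycs and Pvalb added, except that marker lists are given as sums. Further single markers were named after their values were seen. An item named by this rule is not reported here. Lists of further cell types were computed and are not described.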

Additional observations from a re-analysis of the deposited data

Results flagged for a closer look

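In 5 of the 80 groups of 4 VNS or control libraries examined for members, 1 library stood far from the other 3 by Dixon's criterion at the 95% level, which chance meets in about 1 in 20. All 5 were hippocampal VNS library 3. It was low for Uqcrfs1 (88.2 CPM), Atp5f1a (578 CPM) and Sdhd (40.7 CPM) and high for Uqcrh (79.7 CPM) and Ndufb2 (29.6 CPM). This library had the fewest kept counts (4301901) and the highest share of ribosomal RNA (73.1%), and the part of these in the values was not tested.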

How the results depend on the processing

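No member passed in the main analysis or in any of the 17 alternatives of either tissue. The hippocampal setting without control libraries 1 and 2 has a single control library, so only its effect sizes are read. Across the other hippocampal settings 2 to 14 members had an unadjusted p under 0.05, with 14 without VNS library 2 and 2 without control library 1 or control library 2. The hippocampal median stayed between -0.05 and 0.05 (log2). In cortex 35 of 79 tested members were higher with no filter on low counts and 34 of 77 with at least 1 CPM in 3 libraries, where more records were tested. Without hippocampal control libraries 1 and 2 the direction turned for Sdha (0.017), Sdhb (0.18), Ndufaf8 (0.040), Uqcrh (0.017), Cox4i1 (-0.019), Cox8a (-0.060), Cox4i2 (0.43), Pvalb (0.30) and Ppargc1a (0.053). With each library left out in turn, the log2 fold change crossed 0 for 11 hippocampal genes. It ran from -0.11 to 0.043 for Sdhb, -0.13 to 0.27 for Ndufa5, -0.026 to 0.17 for Ndufb9, -0.15 to 0.030 for Ndufaf1, -0.31 to 0.13 for Ndufaf8, -0.087 to 0.021 for Uqcrh, -0.72 to 0.32 for Cox4i2, -0.36 to 0.19 for Cox6b2, -0.14 to 0.082 for Atp5mc1, -1.51 to 0.068 for Pvalb and -0.48 to 0.0081 for Ppargc1a. A single library turned Pvalb, Ppargc1a and Ndufaf1 (control library 1), Cox4i2 (control library 2), Ndufa5 (VNS library 1), and Ndufb9 and Ndufaf8 (VNS library 3), and any of several turned the other 4. Limma-voom turned Ndufaf8 (0.026) and Atp5mc1 (0.080), and no filter turned Atp5mc1 (0.0019). The other named genes recomputed in these settings kept their direction. No paired analysis was possible because the labels give no replicate numbers shared by the groups. Depth limits the cortex and VNS library 3 of the hippocampus most.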
